A study of Mus musculus with 4 samples.

Results

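The endoplasmic reticulum (ER) genes described here encode proteins that bring secreted and membrane proteins into the ER, fold them, export or degrade them, and signal when unfolded protein builds up. They were chosen by name: 39 genes were listed, and a gene counted as measured when a probe set of the array carried its symbol alone. Of these, 38 were measured, among 19938 genes in all, and each reached the expression floor explained below. Sec61g, which encodes a subunit of the Sec61 translocon, lay only on 4 probe sets shared with other gene symbols and has no value here.

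The cells were dendritic cells (DCs) obtained by culturing C57BL/6 bone marrow for 8 days in 200 ng/ml Flt3 ligand, the growth factor of conventional and plasmacytoid DCs. Each of the 4 groups was 1 Affymetrix array: ko (miR-142-/-) CD8-equivalent DCs, wt (miR-142+/+) CD8-equivalent DCs, ko CD4-equivalent DCs and wt CD4-equivalent DCs. miR-142 is a microRNA of blood cells. CD8-equivalent DCs had been sorted as B220-negative, CD11c-positive, CD172-negative and CD24-positive cells with low CD11b. CD4-equivalent DCs were B220-negative, CD11c-positive, CD172-positive and CD11b-positive cells with low CD24. The labels do not give the age or number of the mice, whether an array holds pooled animals, or which bases of the locus were deleted.

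In the unfolded protein response, IRE1 (Ern1) splices the mRNA of the transcription factor Xbp1, ATF6 is cut free from the membrane, and PERK (Eif2ak3) phosphorylates the initiation factor eIF2alpha, which favours translation of Atf4. XBP1 and ATF6 raise chaperones and degradation factors, while ATF4 raises amino acid and stress genes such as Ddit3 and Trib3. CD8alpha-positive DCs of mice are known for constant IRE1 activity, and plasmacytoid DCs for an extensive secretory apparatus. The arrays measured total mRNA, and splicing, cleavage, phosphorylation and translation were not measured.

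The 4 arrays had 9774 to 9821 genes at or above the floor of 5.68, the median log2 value of all single-gene probe sets. Mir142 read 4.79 in ko and 9.87 in wt CD8-equivalent DCs, and 4.92 in ko and 10.37 in wt CD4-equivalent DCs. The probe set checks the labels only if it lies in the deleted part. The CD172 gene Sirpa read 9.67 in CD8-equivalent and 11.92 in CD4-equivalent DCs of ko, and 9.69 and 12.11 in the same order in wt. The CD24 gene Cd24a separated the subsets less in ko, with 12.72 in CD8-equivalent and 11.98 in CD4-equivalent DCs of ko, and 12.76 and 10.98 in wt. Several lists of cell type markers differed between arrays. The mean log2 value of 8 CD8-equivalent DC markers was 9.46 in CD8-equivalent and 8.97 in CD4-equivalent DCs of ko, and 9.87 and 7.79 in wt. The mean log2 value of 8 measured plasmacytoid DC markers was 10.27 in CD8-equivalent and 9.25 in CD4-equivalent DCs of ko, and 10.06 in CD8-equivalent and 8.27 in CD4-equivalent DCs of wt. The mean of 12 neutrophil markers was 7.58 in ko and 5.70 in wt CD4-equivalent DCs, and 5.43 in ko and 5.20 in wt CD8-equivalent DCs. The mean of 10 measured monocyte and macrophage markers was 6.74 in ko and 7.92 in wt CD8-equivalent DCs, and 9.09 in ko and 8.95 in wt CD4-equivalent DCs.

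The promoters of several members share the ER stress response element (ERSE), a binding site of ATF6 and XBP1, and they are shown because it is the sequence feature that the most members had in common among the motifs searched. The element was searched on both strands, as CCAAT and CCACG with 9 bases of any kind between them, in the 250 bases before the transcription start, in RefSeq promoters of GRCm38.p6. Of 33 listed genes with a promoter there, 8 held it, against 37 of all 32851 promoters (0.113%). The element was defined in promoters of ER chaperone genes such as Hspa5, so its presence here is a description and not a result of these arrays. In the promoters below, capitals mark the fixed letters of ERSE, which runs on the opposite strand in Creld2 and lies on each strand once in Hsp90b1.
Hspa5, chr2:34771840-34772089, plus strand: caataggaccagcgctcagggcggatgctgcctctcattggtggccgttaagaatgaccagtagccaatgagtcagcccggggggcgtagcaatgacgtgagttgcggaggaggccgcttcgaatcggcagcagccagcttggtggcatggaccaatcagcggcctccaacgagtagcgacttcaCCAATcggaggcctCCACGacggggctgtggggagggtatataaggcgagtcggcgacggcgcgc
Hsp90b1, chr10:86705445-86705694, minus strand: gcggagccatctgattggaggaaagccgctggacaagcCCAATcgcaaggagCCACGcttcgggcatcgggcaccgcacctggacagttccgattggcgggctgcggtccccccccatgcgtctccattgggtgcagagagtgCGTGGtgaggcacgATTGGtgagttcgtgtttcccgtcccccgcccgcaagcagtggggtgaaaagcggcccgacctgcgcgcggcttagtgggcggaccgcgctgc
Pdia6, chr12:17266339-17266588, plus strand: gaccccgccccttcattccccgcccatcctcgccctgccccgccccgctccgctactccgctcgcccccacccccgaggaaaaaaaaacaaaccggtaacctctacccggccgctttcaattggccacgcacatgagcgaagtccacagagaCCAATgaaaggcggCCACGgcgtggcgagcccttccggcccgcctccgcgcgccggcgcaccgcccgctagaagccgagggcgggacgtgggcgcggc
Creld2, chr15:88819396-88819645, plus strand: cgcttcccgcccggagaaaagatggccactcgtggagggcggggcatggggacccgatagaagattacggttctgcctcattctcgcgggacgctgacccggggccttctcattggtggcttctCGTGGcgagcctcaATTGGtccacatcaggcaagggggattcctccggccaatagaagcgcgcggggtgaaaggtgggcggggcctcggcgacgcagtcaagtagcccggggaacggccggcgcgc
The remaining 4 matches are given as the element alone, on the strand of the gene.
Calr: CGTGGtcgaccctcATTGG
Canx: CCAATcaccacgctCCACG
Dnajc3: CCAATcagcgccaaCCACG
Syvn1: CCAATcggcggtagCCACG
A second form, ERSE-II, searched on both strands as ATTGG and CCACG with 1 base between them, was found in Herpud1 alone among the members, against 0.0304% of all promoters.

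The difference between the subsets was clearest for Sec24d, a cargo-selecting coat protein of the COPII vesicles that leave the ER. Sec24d (probe set 10495830, chromosome 3) read 8.80 in CD8-equivalent and 7.86 in CD4-equivalent DCs of ko, and 8.39 in CD8-equivalent and 7.12 in CD4-equivalent DCs of wt. Both CD8-equivalent arrays lay above both CD4-equivalent arrays. The mean log2 difference, CD8-equivalent minus CD4-equivalent, was 1.10 ± 0.14 (SE, n = 4 arrays), or 2.15-fold, and Sec24d rose in the test across all genes (limma, adjusted p = 0.015). This test was an additive fit of genotype and subset, in which the genotypes stand in for replicates of the subset difference. Since no group holds more than 1 array, a gene's own scatter is only how far its subset differences in ko and wt disagree. That disagreement may be technical or a true difference between genotypes. The fit gave it 1 degree of freedom and added 3.98 from a spread pooled over all genes tested. The SE and p-values therefore rest mostly on the pooled spread and do not measure variation between animals or cultures. The Sec24d promoter was the only one of the 33 with the XBP1 and ATF6 binding sequence TGACGTGG, searched on both strands and present in 0.563% of all promoters. Of 73 promoters of the other ER pathway genes described below, 5 held it: Kdelr3, Txndc11, Txndc5, Ube2j1 and Vcp. None of those genes was called for subset with the main settings. A link between this sequence and the Sec24d difference was not tested. The Sec24d promoter is shown with that match in capitals.
Sec24d, chr3:123267246-123267495, plus strand: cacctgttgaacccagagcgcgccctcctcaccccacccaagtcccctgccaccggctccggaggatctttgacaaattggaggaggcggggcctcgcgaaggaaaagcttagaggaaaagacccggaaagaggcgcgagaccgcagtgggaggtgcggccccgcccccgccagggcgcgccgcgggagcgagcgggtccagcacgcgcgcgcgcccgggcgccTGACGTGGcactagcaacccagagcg

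Sec24d was the only member called for subset, so 1 of 38 rose in CD8-equivalent DCs and 0 fell. Over all 10239 genes tested, 7.98% were called higher and 6.35% lower, or 14.3% in either direction. With no adjustment, a p under 0.05 was reached by 11 higher members and 1 lower (31.6% of members). Of all genes tested, 2077 higher and 1332 lower reached it (33.3% in either direction). The count of calls depended on the settings. With limma's trended and robust prior 8 members rose: Sec24d, Xbp1, Hsp90b1, Hyou1, Creld2, Pdia4, Ssr2 and Spcs2. With the floor raised to the 75th percentile of values, 34 members were tested and 4 rose, Hyou1, Manf, Creld2 and Ssr2, while Sec24d itself was no longer tested.

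Most members lay slightly higher in CD8-equivalent DCs. Both CD8-equivalent arrays exceeded both CD4-equivalent arrays for 21 of 38 members (55.3%), where 37.0% of all genes tested did so. The opposite held for 4 members, against 21.3% of all genes: the CHOP gene Ddit3, Ppp1r15a, and the degradation genes Edem1 and Sel1l. Within both genotypes 24 members (63.2%) were higher in CD8-equivalent DCs, against 46.5% of all genes. In wt 31 of 38 members lay above 0 (median 0.16), as did 5474 of 9998 genes compared (0.04). In ko 26 of 38 did (median 0.13), as did 6359 of 10118 genes (0.11), so members and all genes lay closer there. After cyclic loess the members' median was 0.13 in each genotype, against 0.0004 over all genes in ko and -0.0008 in wt. The mean difference had a median of 0.15 over the members and 0.08 over all genes tested, and after cyclic loess these were 0.11 and -0.002. Of the members, 28 lay above 0 as deposited, as did 6145 of 10239 genes, with 25 members after cyclic loess and 29 after centring each array on its median. The same arrays differed in plasmacytoid DC markers, of which 7 of 8 measured were higher in CD8-equivalent DCs in each genotype. Monocyte and macrophage markers were lower there for 8 of 8 compared in each genotype, 8 of them at least 2-fold in ko and 4 in wt. The part of these cells in the members' values was not tested. In bulk samples, fewer cells of a type and less RNA per cell cannot be told apart.

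**Figure D1:**
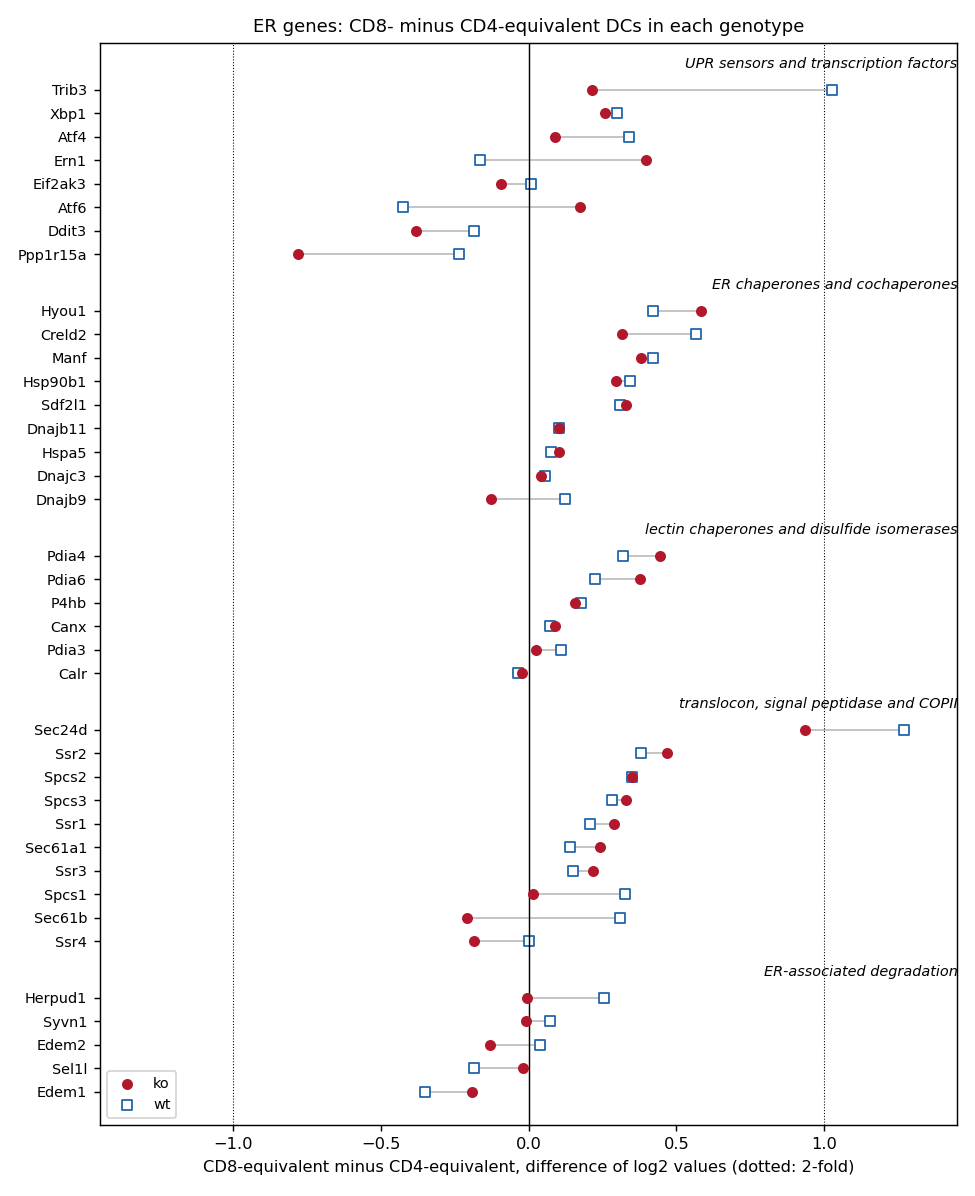
Difference of log2 values, CD8-equivalent minus CD4-equivalent DCs, for each of 38 measured ER genes in ko (filled circles) and wt (open squares), grouped by role and ordered within each role by the mean difference; dotted lines mark 2-fold. Chaperone and translocation genes lie mostly right of 0, Sec24d lies near or beyond the 2-fold line, and Ern1, Atf6 and Sec61b have ko and wt on opposite sides of 0.

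Among the ER chaperones and their cochaperones, 8 of 9 lay above 0 in both genotypes, the median of the mean differences was 0.32, and 0 passed the test. Hyou1, an ER-resident relative of the heat shock protein family that acts with BiP, read 10.36 in CD8-equivalent and 9.77 in CD4-equivalent DCs of ko, and 10.08 in CD8-equivalent and 9.67 in CD4-equivalent DCs of wt. Its mean difference was 0.50 ± 0.12 (SE, n = 4 arrays, limma adjusted p = 0.057). Creld2, an ER protein induced by stress, read 10.29 in CD8-equivalent and 9.98 in CD4-equivalent DCs of ko, and 10.23 in CD8-equivalent and 9.67 in CD4-equivalent DCs of wt. These CD8-equivalent arrays lay above the CD4-equivalent arrays for both genes.

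The secreted ER factor gene Manf differed by 0.38 in ko and 0.42 in wt, and Hsp90b1, which encodes the chaperone GRP94, by 0.30 in ko and 0.34 in wt. Sdf2l1, a partner of BiP and its cochaperones, differed by 0.33 in ko and 0.31 in wt. By contrast Hspa5, the gene of BiP, the central Hsp70 chaperone of the ER and sensor regulator, differed by 0.10 in ko and 0.08 in wt. Its levels were 12.33 in CD8-equivalent and 12.23 in CD4-equivalent DCs of ko, and 12.20 in CD8-equivalent and 12.12 in CD4-equivalent DCs of wt, so the subsets overlapped. The BiP cochaperones Dnajb11 (0.10 in both genotypes), Dnajc3 (0.04 in ko, 0.06 in wt) and Dnajb9 (-0.13 in ko, 0.12 in wt) were close to 0.

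The lectin chaperones, which hold glycoproteins during folding, barely differed between subsets. Calr, the calreticulin gene, differed by -0.02 in ko and -0.04 in wt, and Canx, the calnexin gene, by 0.09 in ko and 0.07 in wt. Pdia3, the disulfide isomerase that works with both lectins and in MHC class I loading, differed by 0.02 in ko and 0.11 in wt. The larger values in this group belonged to other disulfide isomerases. Pdia4 read 11.50 in CD8-equivalent and 11.05 in CD4-equivalent DCs of ko, and 11.32 in CD8-equivalent and 11.00 in CD4-equivalent DCs of wt. A second Pdia4 probe set of low signal differed by 0.27 in ko and -0.19 in wt. Pdia6, a further isomerase, differed by 0.38 in ko and 0.23 in wt, and P4hb, the gene of protein disulfide isomerase itself, by 0.16 in ko and 0.18 in wt.

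Genes of translocation, signal peptide cleavage and COPII export, Sec24d included, lay above 0 in CD8-equivalent DCs for 9 of 10 measured members by mean difference, with a median of 0.22. For the translocon-associated protein genes the mean differences were 0.42 for Ssr2, 0.25 for Ssr1, 0.18 for Ssr3 and -0.09 for Ssr4. The signal peptidase genes, whose products cut signal peptides, gave 0.35 for Spcs2, 0.30 for Spcs3 and 0.17 for Spcs1. Sec61a1, the pore subunit of the translocon, gave 0.19. Sec61b, another translocon subunit, was uneven, with -0.21 in ko and 0.31 in wt. Its 3 probe sets gave the same signs, from -0.21 to -0.17 in ko and from 0.23 to 0.31 in wt.

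The 5 members of ER-associated degradation, which returns misfolded proteins to the cytosol, had a median subset difference of -0.05, while 12 further degradation genes outside the members had a median of 0.19, with 11 of 12 above 0. All 5 members lay below 0 in ko, from -0.19 for Edem1 to -0.005 for Herpud1, and 3 of 5 lay above 0 in wt. Edem1, a lectin that picks out glycoproteins for degradation, read 11.74 in CD8-equivalent and 11.93 in CD4-equivalent DCs of ko, and 11.62 in CD8-equivalent and 11.97 in CD4-equivalent DCs of wt. Both CD8-equivalent arrays were below both CD4-equivalent arrays, and the mean difference of -0.27 did not pass the test (limma adjusted p = 0.19). The related Edem2 differed by -0.13 in ko and 0.04 in wt. Herpud1, a membrane scaffold of the degradation complex, Syvn1, its ubiquitin ligase, and Sel1l, the adaptor of that ligase, had mean differences of 0.12, 0.03 and -0.10.

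The sensors and transcription factors were mixed, with 4 of 8 above 0 by mean difference and 0 called. Xbp1 read 11.84 in CD8-equivalent and 11.58 in CD4-equivalent DCs of ko, and 11.80 in CD8-equivalent and 11.50 in CD4-equivalent DCs of wt. The subsets did not overlap, and the mean difference of 0.28 did not pass the test (limma adjusted p = 0.17). Atf4 differed by 0.09 in ko and 0.34 in wt, and the PERK gene Eif2ak3 by -0.09 in ko and 0.01 in wt. Ppp1r15a, which encodes GADD34 and reverses eIF2alpha phosphorylation, read 6.50 in CD8-equivalent and 7.29 in CD4-equivalent DCs of ko, and 6.75 in CD8-equivalent and 6.98 in CD4-equivalent DCs of wt. Ddit3, whose product CHOP drives late stress responses, read 7.20 in CD8-equivalent and 7.58 in CD4-equivalent DCs of ko, and 7.48 in CD8-equivalent and 7.67 in CD4-equivalent DCs of wt. The values of Ddit3 and Ppp1r15a thus ran against those of Xbp1 and Atf4 in both genotypes.

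The genotype comparison asked which members differed between ko and wt. Of 38 members 0 were called by limma, and 0.166% of all genes tested were, 0.107% higher and 0.0586% lower in ko. With no adjustment, a p under 0.05 was reached by 2 members (5.26%), Sec24d higher and Trib3 lower in ko, against 15.6% of all genes. None was called under any of the 6 alternative settings of the fit. The members' mean differences, ko minus wt, had a median of 0.06, with 0.04 to 0.08 under the alternatives, and the median of all genes tested was -0.04. They ran from -0.77 to 0.58. In both subsets 18 members (47.4%) had the higher value in ko, where 24.5% of all genes did, and 5 (13.2%) had the lower, against 37.3% of all genes. The remaining 15 changed sign between the subsets. The mean difference lay above 0 for 27 members as deposited, 29 after cyclic loess and 24 after centring each array on its median.

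**Figure D2:**
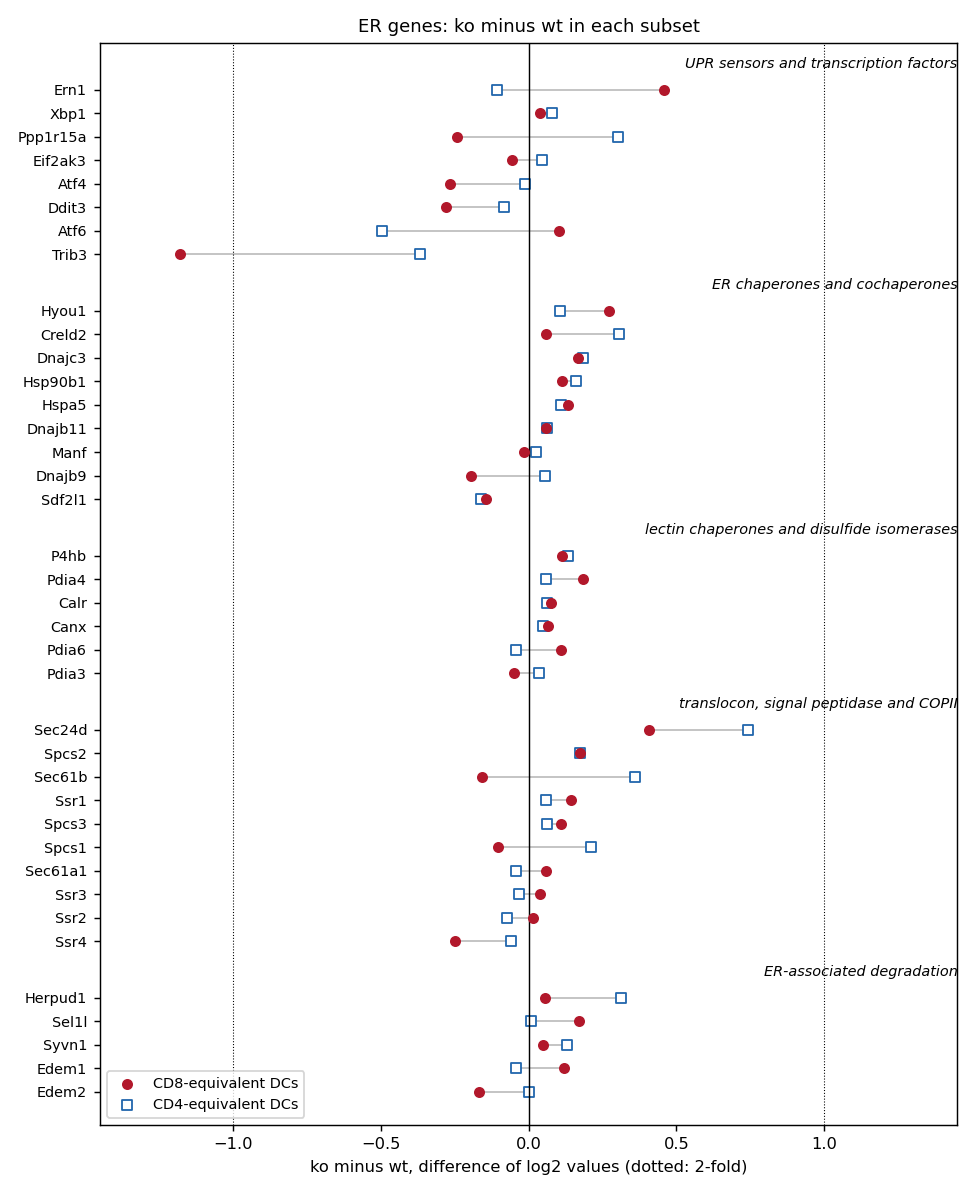
Difference of log2 values, ko minus wt, for each of 38 measured ER genes in CD8-equivalent DCs (filled circles) and CD4-equivalent DCs (open squares), grouped by role and ordered within each role by the mean difference; dotted lines mark 2-fold. Most genes lie close to 0, Sec24d lies right of 0 in both subsets, and Trib3 passes the 2-fold line to the left in CD8-equivalent DCs.

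Sec24d was 0.41 higher in ko than in wt in CD8-equivalent DCs and 0.74 higher in CD4-equivalent DCs. The mean of 0.58 ± 0.14 (SE, n = 4 arrays) did not pass the test (limma adjusted p = 0.17), and the levels of the genotypes overlapped across subsets. Trib3, a pseudokinase gene induced by ATF4 and CHOP, read 5.85 in ko and 7.03 in wt CD8-equivalent DCs, and 5.64 in ko and 6.00 in wt CD4-equivalent DCs. Both ko arrays lay below both wt arrays, and the wt CD8-equivalent array stood apart above the others. The fold was 2.27 lower in ko CD8-equivalent DCs and 1.29 lower in ko CD4-equivalent DCs, where the ko value was just under the floor. Trib3 was the only member at least 2-fold apart between genotypes in CD8-equivalent DCs, where 1.00% of genes compared were that much lower and 1.14% that much higher in ko, or 2.15% together. In CD4-equivalent DCs 0 members were 2-fold apart, against 1.39% of genes higher and 0.952% lower in ko, or 2.35% together. Its mean of -0.77 did not pass the test (limma adjusted p = 0.21). Between the subsets of wt, Trib3 and Sec24d were the 2 members with CD8-equivalent values at least 2-fold above CD4-equivalent ones, as 2.10% of genes compared were, while 0 members and 3.14% of genes were that much lower (5.24% together). In ko 0 members passed 2-fold, against 3.39% of genes higher and 3.90% lower, or 7.29% together.

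Other members with non-overlapping genotypes showed small values. Both ko arrays exceeded both wt arrays for 5 members (13.2%, against 9.79% of all genes): Hspa5, Dnajc3, Calr, Herpud1 and Syvn1. Hspa5 read 12.33 in ko and 12.20 in wt CD8-equivalent DCs, and 12.23 in ko and 12.12 in wt CD4-equivalent DCs. Dnajc3, which encodes the BiP cochaperone and PERK inhibitor P58IPK, was 0.17 higher in CD8-equivalent and 0.18 higher in CD4-equivalent ko DCs. Herpud1 read 11.56 in ko and 11.51 in wt CD8-equivalent DCs, and 11.57 in ko and 11.25 in wt CD4-equivalent DCs. Hyou1, among the 3 highest members by mean genotype difference, was 0.27 higher in CD8-equivalent and 0.11 higher in CD4-equivalent ko DCs. Both ko arrays lay below both wt arrays for Trib3 and Ssr4 (5.26% of members, against 18.1% of all genes), and Ssr4 differed by -0.25 in CD8-equivalent and -0.06 in CD4-equivalent DCs. None of these members passed the test. Plasmacytoid DC markers were also higher in ko, 7 of 8 in CD8-equivalent and 8 of 8 in CD4-equivalent DCs, and in CD4-equivalent DCs 8 of 12 neutrophil markers were 2-fold or more above wt in ko. Monocyte and macrophage markers were at least 2-fold lower in ko for 6 of 8 compared in CD8-equivalent DCs. CD8-equivalent DC markers were 2-fold or more higher in ko for 4 of 7 compared in CD4-equivalent DCs, among them Clec9a and Irf8. Batf3 differed there by only -0.04. In CD8-equivalent DCs 5 of 8 CD8-equivalent DC markers were lower in ko and 3 higher, with Itgae lowest at -2.36. The part of these cells in the members' values was not tested.

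**Figure D3:**
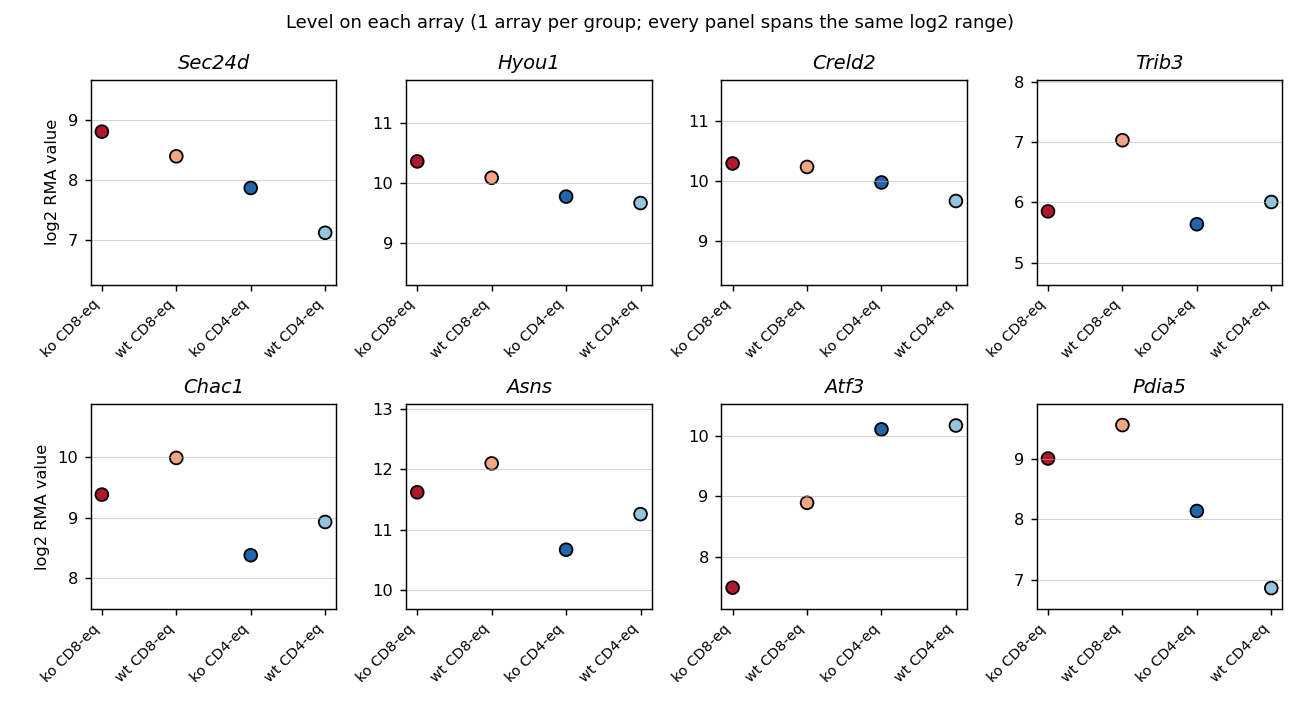
RMA log2 value on each array (1 per group) of Sec24d, Hyou1, Creld2 and Trib3 and of the ER stress pathway genes Chac1, Asns, Atf3 and Pdia5; every panel spans the same log2 range. Sec24d and Hyou1 are higher on both CD8-equivalent arrays, Chac1 and Asns are higher on CD8-equivalent arrays and lower in ko within each subset, and Atf3 is highest on the CD4-equivalent arrays.

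For the sensors Ern1 and Atf6 the difference between genotypes was larger in one subset than in the other. Ern1 read 10.06 in ko and 9.60 in wt CD8-equivalent DCs, and 9.66 in ko and 9.77 in wt CD4-equivalent DCs. Atf6 read 11.36 in ko and 11.26 in wt CD8-equivalent DCs, and 11.19 in ko and 11.68 in wt CD4-equivalent DCs. The ko CD8-equivalent array was thus the highest of 4 for Ern1, and the wt CD4-equivalent array the highest for Atf6. The difference of the differences, CD8-equivalent minus CD4-equivalent, was 0.56 for Ern1, 0.60 for Atf6, -0.54 for Ppp1r15a, -0.52 for Sec61b and -0.81 for Trib3. It has no test here, since it takes the last degree of freedom. No member reached 1 in size, where 2.24% of all genes tested did. Xbp1 differed between genotypes by 0.04 in CD8-equivalent and 0.08 in CD4-equivalent DCs, and Eif2ak3 by -0.06 and 0.05.

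Across the 38 members the subset differences in ko and wt, which share no array, had a Pearson correlation of 0.64 and a Spearman correlation of 0.65, against 0.79 and 0.72 over all genes tested. The genotype differences in the subsets had 0.38 and 0.26, against 0.49 and 0.39 over all genes. Without Sec24d and Trib3 the members' subset differences had a Pearson correlation of 0.59 and a Spearman correlation of 0.63. Their genotype differences then had a Pearson correlation of -0.05 and a Spearman correlation of 0.14. Genes are not independent replicates, and these values describe the arrays only. Among the 32 measured members with a promoter, the 9 with ERSE or ERSE-II had a median subset difference of 0.09 in ko and 0.08 in wt, and the 23 with neither had 0.09 and 0.15. For ko minus wt these medians were 0.07 in CD8-equivalent and 0.13 in CD4-equivalent DCs with the element, and -0.05 and 0.05 without it. Hyou1, Ssr2, Manf, Spcs3, Sec61a1 and Atf6 had no promoter in the set searched and are in neither group. Their mean subset differences were 0.50, 0.42, 0.40, 0.30, 0.19 and -0.13 in that order.

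**Figure D4:**
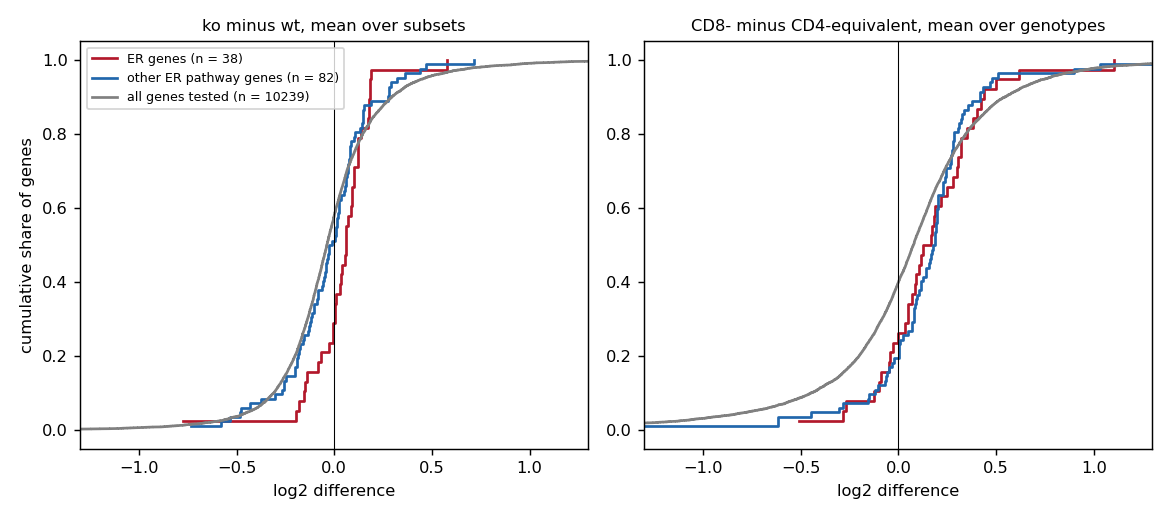
Cumulative share of genes by mean log2 difference, ko minus wt (left) and CD8-equivalent minus CD4-equivalent (right), for 38 ER genes (red), 82 other ER pathway genes (blue) and all 10239 genes tested (grey). The ER genes have a median of 0.06 for genotype and 0.15 for subset, against -0.04 and 0.08 for all genes. The other ER pathway genes have -0.02 for genotype and 0.18 for subset.

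Beyond the members, 89 further genes of ER entry, glycosylation, folding, degradation, export and stress signalling were listed, of which 83 were measured and 82 reached the floor. For genotype 0 of 82 were called (limma), and 2, Asns and Wfs1, were called with the trended and robust prior. With no adjustment, a p under 0.05 was reached by 9, of which 4 were higher and 5 lower in ko, where 15.6% of all genes did. For subset 2 rose and 2 fell in CD8-equivalent DCs, where 14.3% of all genes were called, and the median difference was 0.18, against 0.08 over all genes. With these main settings the 4 called genes all belonged to the stress signalling list. With the floor at the 75th percentile 10 genes were called for subset, among them Srp68, Txndc5 and Pdia5 of other lists. The trended and robust prior gave 11, among them Srp68, Ostc and Txndc5. No gene of the other 5 lists was called with the main settings, though most of their genes lay above 0, as did 6145 of all 10239. These were 10 of 11 glycosylation genes, 11 of 12 further folding genes, 11 of 12 further degradation genes, 11 of 13 signal recognition and translocation genes and 12 of 15 transport genes between ER and Golgi. In the stress signalling list 11 of 19 did.

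Chac1 and Asns, genes induced by ATF4 in amino acid and ER stress, rose in CD8-equivalent DCs. Chac1, which degrades glutathione, read 9.38 in CD8-equivalent and 8.38 in CD4-equivalent DCs of ko, and 9.99 in CD8-equivalent and 8.93 in CD4-equivalent DCs of wt. The mean difference was 1.03 ± 0.12 (SE, n = 4 arrays), or 2.05-fold (limma adjusted p = 0.013). Asns, the asparagine synthetase, read 11.62 in CD8-equivalent and 10.66 in CD4-equivalent DCs of ko, and 12.10 in CD8-equivalent and 11.26 in CD4-equivalent DCs of wt. Its mean difference was 0.90 ± 0.12 (SE, n = 4 arrays, limma adjusted p = 0.016). Both were also lower in ko than in wt within each subset, Chac1 by -0.61 in CD8-equivalent and -0.55 in CD4-equivalent DCs and Asns by -0.48 and -0.59. These genotype differences did not pass the test (limma adjusted p = 0.13 and 0.14), with ranges of 0.054 to 0.16 and 0.024 to 0.18 over all settings. The member Trib3 was likewise highest in wt CD8-equivalent and lowest in ko CD4-equivalent DCs.

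The promoters of Chac1 and Asns held the ATF4 binding sequence TGATGNAA, shown in capitals below, on the opposite strand in Chac1. It was searched on both strands and is present in 3.45% of all promoters. Among the other pathway genes it was also found in Atf3, which fell in CD8-equivalent DCs, and in Nupr1, Kdelr1 and Txndc5. The last 3 were not called with the main settings. Txndc5 was called for subset with the floor at the 75th percentile and with the trended and robust prior. In the same window it was found in Herpud1 among the 33 members, and these letters were not in the window of Trib3.
Chac1, chr2:119350992-119351241, plus strand: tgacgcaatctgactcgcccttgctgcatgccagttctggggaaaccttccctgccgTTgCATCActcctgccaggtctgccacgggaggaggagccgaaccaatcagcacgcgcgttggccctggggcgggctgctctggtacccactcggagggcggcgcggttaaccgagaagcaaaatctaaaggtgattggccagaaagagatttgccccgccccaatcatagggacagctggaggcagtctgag
Asns, chr6:7693210-7693459, minus strand: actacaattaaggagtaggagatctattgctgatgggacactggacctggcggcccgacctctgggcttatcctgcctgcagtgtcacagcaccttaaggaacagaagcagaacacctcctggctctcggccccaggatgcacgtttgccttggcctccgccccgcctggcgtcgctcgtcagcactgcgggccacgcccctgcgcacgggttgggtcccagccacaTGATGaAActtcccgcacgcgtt

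Atf3, a stress-induced transcription factor gene that also responds to inflammatory signals, fell in CD8-equivalent DCs. It read 7.49 in CD8-equivalent and 10.11 in CD4-equivalent DCs of ko, and 8.89 in CD8-equivalent and 10.18 in CD4-equivalent DCs of wt. The mean difference was -1.95 ± 0.32 (SE, n = 4 arrays, limma adjusted p = 0.024). Eif2ak2, the interferon-induced RNA-sensing kinase PKR that phosphorylates eIF2alpha, fell by 0.61 in CD8-equivalent DCs (limma adjusted p = 0.044). Without the floor neither was called (limma adjusted p = 0.070 for Atf3 and 0.068 for Eif2ak2), and with the trended and robust prior Atf3 was not (adjusted p = 0.082). Monocyte and macrophage markers were also lower in CD8-equivalent DCs. Their 10 measured genes averaged 6.74 in CD8-equivalent and 9.09 in CD4-equivalent DCs of ko, and 7.92 and 8.95 in wt. So were the 8 CD4-equivalent DC markers, which averaged 7.39 and 9.45 in ko, and 7.57 and 9.86 in wt. The array order of Atf3 was that of the CD4-equivalent DC markers. The part of the cells behind either list in the values of Atf3 was not tested.

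Pdia5, a disulfide isomerase gene outside the list of members, had the widest range over the 4 arrays of the other pathway genes measured. It read 9.01 in CD8-equivalent and 8.14 in CD4-equivalent DCs of ko, and 9.56 in CD8-equivalent and 6.86 in CD4-equivalent DCs of wt. The wt CD4-equivalent array was low and the others lay between 8.14 and 9.56. The mean subset difference of 1.79 ± 0.43 (SE, n = 4 arrays) did not pass the test (limma adjusted p = 0.055). Nupr1, a stress-induced nuclear protein gene, read 8.34 in ko and 9.29 in wt CD8-equivalent DCs, and 9.42 in ko and 9.44 in wt CD4-equivalent DCs. The ko CD8-equivalent array was the low one. Wfs1, an ER membrane protein gene tied to calcium and stress that was chosen after its values were seen, was 0.66 higher in ko CD8-equivalent and 0.77 higher in ko CD4-equivalent DCs. It was not called as deposited (limma adjusted p = 0.091), but was with the trended and robust prior (adjusted p = 0.049).

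**Figure D5:**
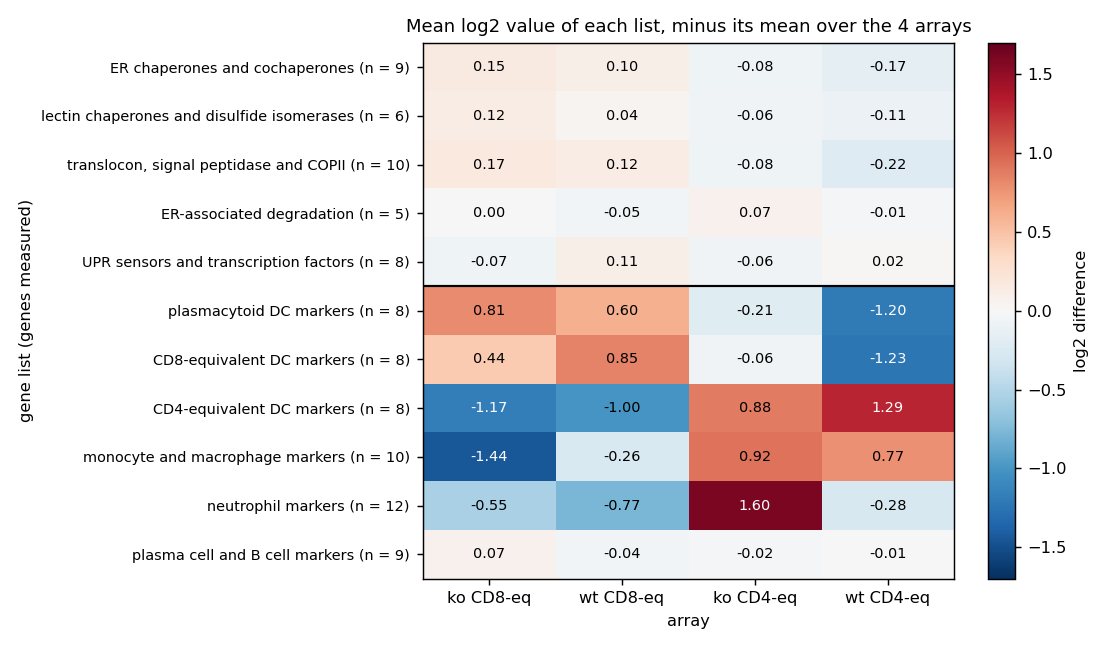
Mean log2 value of each gene list on each array, minus the mean of that list over the 4 arrays; the upper 5 rows are the ER genes by role and the lower 6 are cell type markers. ER chaperones run from -0.17 to 0.15 and plasmacytoid DC markers from -1.20 to 0.81. Both, like the lectin chaperone and translocon lists, are lowest in wt CD4-equivalent and highest in ko CD8-equivalent DCs. The mean of the neutrophil markers is high only in ko CD4-equivalent DCs, at 1.60. Single genes of that list differ, and Mpo read 7.55 in ko CD8-equivalent and 7.02 in ko CD4-equivalent DCs.

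The role groups were set beside the markers of other cell types. The mean log2 value of the ER chaperones was 10.75 in CD8-equivalent and 10.52 in CD4-equivalent DCs of ko, and 10.70 in CD8-equivalent and 10.43 in CD4-equivalent DCs of wt. The lectin chaperones and disulfide isomerases, and the translocon, signal peptidase and COPII genes, shared this array order, wt CD4-equivalent lowest and ko CD8-equivalent highest. It was also the order of the plasmacytoid DC markers. All 8 of these markers reached the floor on 3 arrays, and 6 did on the wt CD4-equivalent array. The part of plasmacytoid DCs in the order of the ER lists was not tested. The sort excluded B220-positive cells. Plasma cell and B cell markers, of a lineage with abundant ER, averaged 4.79 to 4.90 over 9 measured genes, of which 6 lay below the floor on all 4 arrays, Jchain, Mzb1 and Tnfrsf17 among them. The other 3 reached it on some: Sdc1 on both ko arrays with up to 6.29, Prdm1 on both CD4-equivalent arrays with up to 6.44, and Ebf1 on the ko CD8-equivalent array with 5.69. The 5 ER-associated degradation members had no such order, with 10.28 in CD8-equivalent and 10.36 in CD4-equivalent DCs of ko, and 10.24 and 10.27 in wt.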

How the data were processed

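The authors deposited 1 log2 value for each probe set and array. RMA and Partek are named in the submitters' processing notes, while versions and genome build were not given in the sources used here. The log base was inferred from the range of 3.52 to 14.3, and scale and centring could not be set against scanner values. The median of each array was 5.94 (ko) and 5.87 (wt) in CD8-equivalent DCs, and 5.88 (ko) and 5.91 (wt) in CD4-equivalent DCs.

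GEO's annotation of the platform, dated 2016, gave a single symbol to 21789 of 35399 probe sets and several to 1621, and 11989 stay unnamed. By gene ID, 21698 matched RefSeq (GRCm38.p6). The probe set with the highest mean stood for a gene. Genes reaching the floor on any array were fitted with limma 3.58.1 in R 4.3.3 (lmFit and eBayes, additive genotype and subset, 1 residual and 3.98 prior degrees of freedom, two-sided, Benjamini-Hochberg at 0.05), tested first on simulated data. Differences between 2 arrays have no test and were counted at 2-fold. The genes given in full were the members called by limma, at least 2-fold apart in any pair of arrays, or among the 3 highest and 3 lowest by either mean difference. Other pathway genes were named where called or 2-fold apart. The members, lists and tests were chosen with earlier results of these data known, and further members were added to describe each role. The number of arrays limits the precision. Alternatives varied the floor, normalization, probe set choice and prior.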

Additional observations from a re-analysis of the deposited data

Results flagged for a closer look

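For 3 members and 1 other pathway gene, the 2 strata of a contrast moved in opposite directions by more than 0.17, the typical spread of a difference of 2 arrays in the fit. These differences between strata were not tested. Ppp1r15a, ko minus wt, was -0.24 in CD8-equivalent and 0.30 in CD4-equivalent DCs. Pdia5, ko minus wt, was -0.55 in CD8-equivalent and 1.28 in CD4-equivalent DCs. Atf6, CD8-equivalent minus CD4-equivalent, was 0.17 in ko and -0.43 in wt. Sec61b, CD8-equivalent minus CD4-equivalent, was -0.21 in ko and 0.31 in wt.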

How the results depend on the processing

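The subset call of Sec24d held in each of the 5 alternatives that tested it, with adjusted p from 0.0040 to 0.034 over all settings. The count of members called for subset was 1 as deposited, 4 with the floor at the 75th percentile and 8 with the trended and robust prior. With that higher floor, 0 members were 2-fold apart between genotypes in CD8-equivalent DCs and 0 between subsets in wt, since Trib3 and Sec24d were no longer compared. The genotype difference of Manf, 0.005 as deposited, was -0.013 after centring each array on its median. Over all genes, limma called 17 for genotype as deposited, 3 without the floor, 141 with the higher floor, 130 after cyclic loess, 53 after centring and 307 with the trended and robust prior. For subset it called 1467 as deposited and 946 without the floor. Among other pathway genes, subset calls numbered 4 as deposited, 2 without the floor, 10 with the higher floor and 11 with the trended and robust prior. After cyclic loess 789 of 1757 subset calls were higher in CD8-equivalent DCs, against 817 of 1467 as deposited. After cyclic loess 91 of 130 genotype calls were higher in ko, against 11 of 17 as deposited. The cause of these shifts was not tested. No paired analysis was possible because each group holds 1 array, so the groups share fewer than 2 replicate numbers.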
